A study of Mus musculus with 32 samples.

Results

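C1q is the recognition molecule of the classical complement pathway, and its 3 chains are encoded by C1qa, C1qb and C1qc. These 3 genes were taken by name from the 55341 gene symbols of single-cell RNA counts of mouse cortex and hippocampus, and their levels were followed over cell types, single barcodes, mice, genotypes, treatment and region. The chains held 68574 of the 10017205 unique molecular identifiers (UMIs, each standing for 1 captured RNA molecule), or 0.685%. Of these, 13861 UMIs belonged to C1qa, 28752 to C1qb and 25961 to C1qc.

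C1q is assembled from all 3 chains, which wind around each other in a collagen-like stalk of repeated glycine triplets and end in globular heads that bind antibodies, fibrillar amyloid, dying cells and synapses. Bound C1q activates the proteases C1r and C1s, which cleave C4 and C2 and so lead on to C3 and to the fragment C5a, the ligand of the receptor C5aR1. In the brain, microglia are the main source of C1q, and C1q has been linked to synapse removal and to amyloid plaques.

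The 32 libraries came from 16 female mice aged 15 months, with 1 cortex and 1 hippocampus library from each. Among the WT mice 5 received vehicle (WT-vehicle) and 3 received PMX205 (WT-PMX205), and among the Tg2576 mice 4 received each (Tg2576-vehicle and Tg2576-PMX205). Tg2576 mice carry a human APP transgene with the Swedish mutation under the prion promoter, and WT mice were their littermates. PMX205, a cyclic peptide that blocks C5aR1, was given in the drinking water for 12 weeks at about 2 to 8 mg/kg per day, and vehicle mice drank plain water. Cells of all groups were dissociated in transcription and translation inhibitors and enriched with anti-CD11b beads for microglia and anti-ACSA-2 beads for astrocytes, so the proportions of cell types were set by that enrichment. The labels give the transgenic genotype as APP and the strain as Arctic, another model than Tg2576, and strain and genotype labels conflict in 2 mice, WT-vehicle mouse 4 and Tg2576-vehicle mouse 3. A constitutive C5ar1 knockout is named under strain for 5 mice, and C5a overexpression driven by the GFAP promoter for 5 others. C5ar1 RNA was found in 4 of 5 animals with the knockout label (37 UMIs in all). It was found in 5 of 5 with the C5a label (65 UMIs) and in 5 of 6 with neither (161 UMIs). These totals are not scaled to depth. Scaled to all UMIs of the mouse (CPM), C5ar1 ranged from 0 to 35.31 with the knockout label. It ranged from 7.242 to 59.9 CPM with the C5a label and from 0 to 44.99 CPM with neither, so the ranges overlapped.

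Each library held 73 to 1586 deposited barcodes (median 273) and 37205 to 1072049 UMIs. Of 13917 barcodes, 5965 met the limits of the study's methods and 5626 remained after doublet removal. In all, 289 of 12874 barcode sequences occurred in 2 or more libraries and 18 occurred in all 32. In 4 mice many barcodes had a partner that differed at the first base only: 33.7% in Tg2576-PMX205 mouse 2, 23.4% in Tg2576-PMX205 mouse 3, 55.6% in Tg2576-vehicle mouse 4 and 57.7% in WT-vehicle mouse 5, against 2.04% or less in the other 12 mice. Whether such a pair is 1 bead or 2 was not tested, and counts of barcodes in these mice carry that uncertainty. The 1622 microglial barcodes were identified without the C1q genes, from 15 other markers such as Csf1r, Cx3cr1 and Tmem119.

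The 3 genes lie side by side on the minus strand of mouse chromosome 4 (mm10). C1qb (ENSMUSG00000036905.8) spans chr4:136880129-136886187, C1qc (ENSMUSG00000036896.5) spans chr4:136889804-136893065 and C1qa (ENSMUSG00000036887.5) spans chr4:136895917-136898803. The cluster covers 18.7 kb with no other annotated gene inside it, and 3616 and 2851 bases separate the neighbours. No annotated gene overlaps any chain, and the 3 transcripts share no word of 31 bases, so no stretch of that length is found in more than 1 chain.

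**Figure D1:**
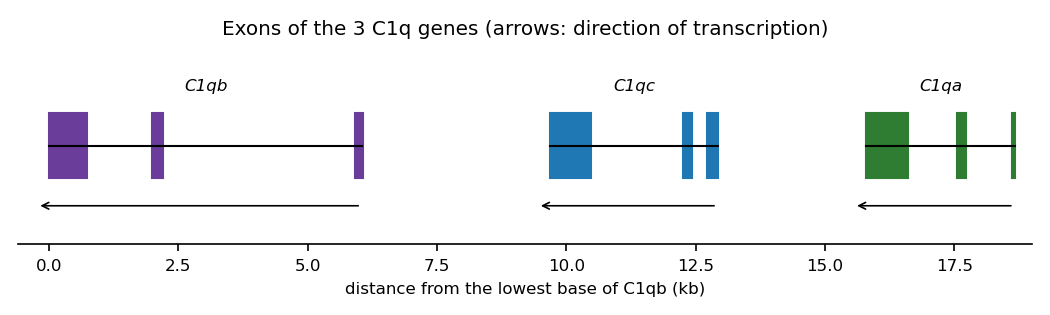
Exons (boxes) and introns (lines) of C1qb, C1qc and C1qa, with the distance in kb from the lowest base of C1qb on the horizontal axis and arrows for the direction of transcription. Each transcript drawn has 3 exons with the longest one last (a second, shorter C1qc transcript is not drawn), and the cluster covers 18.7 kb.

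Part of the coding sequence of the collagen-like stalk is shown for each chain, because the stalk is a feature that the chains have in common. The longest unbroken run of triplets that begin with glycine is printed 5′ to 3′ on the coding strand from the annotated transcripts, with the glycine codons in capitals.
C1qa: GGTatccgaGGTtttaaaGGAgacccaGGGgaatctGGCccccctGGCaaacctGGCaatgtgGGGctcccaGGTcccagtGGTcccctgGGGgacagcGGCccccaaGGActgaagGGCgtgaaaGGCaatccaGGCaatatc
C1qb: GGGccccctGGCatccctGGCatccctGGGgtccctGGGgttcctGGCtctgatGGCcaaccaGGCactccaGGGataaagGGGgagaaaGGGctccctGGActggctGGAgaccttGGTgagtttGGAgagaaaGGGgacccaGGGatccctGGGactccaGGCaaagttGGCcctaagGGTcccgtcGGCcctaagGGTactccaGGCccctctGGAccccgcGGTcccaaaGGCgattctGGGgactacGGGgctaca
C1qc: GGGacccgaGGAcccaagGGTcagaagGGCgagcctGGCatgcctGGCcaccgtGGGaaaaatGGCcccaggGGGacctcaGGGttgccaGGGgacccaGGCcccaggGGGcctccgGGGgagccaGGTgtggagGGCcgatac
The run held 16 glycine triplets in C1qa (codons 62 to 109 of 245, exon 3), 29 in C1qb (codons 31 to 117 of 253, exons 2 and 3) and 16 in C1qc (codons 68 to 115 of 246, exon 3).

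Of the 3 chains, 2 matched the promoter sequences from RefSeq, C1qb and C1qc, and the bases before each are shown for the motifs of myeloid factors they hold. They are printed 5′ to 3′ on the strand of the genes, from RefSeq (GRCm38.p6), for chr4:136886201-136886450 (C1qb, 250 bases) and chr4:136893066-136893164 (C1qc, the 99 bases that lie before the annotated first exon). Capitals mark GAGGAA or its reverse complement, the core bound by the myeloid factor PU.1, and TGCTGA, part of the site bound by MAF factors.
C1qb: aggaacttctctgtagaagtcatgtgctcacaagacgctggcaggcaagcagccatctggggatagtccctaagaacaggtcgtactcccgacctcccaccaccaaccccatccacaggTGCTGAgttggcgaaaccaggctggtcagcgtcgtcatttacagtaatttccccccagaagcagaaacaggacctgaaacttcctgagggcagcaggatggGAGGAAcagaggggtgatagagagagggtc
C1qc: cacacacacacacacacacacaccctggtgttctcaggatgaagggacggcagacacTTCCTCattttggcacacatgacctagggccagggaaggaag
In C1qb the letters GAGGAA began 30 bases and TGCTGA 131 bases before the RefSeq start. In C1qc the PU.1 core stood on the other strand, 193 bases before the RefSeq start. Searched on both strands, GAGGAA was found in 28.3% and TGCTGA in 19.1% of 27025 promoter windows of the same kind (250 bases before to 50 after the start), so a match in 1 window is common and is given as a description.

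C1q RNA was among the most abundant RNA of microglia. In the 12 mice with at least 20 microglial barcodes, C1qb ranked 13, C1qc ranked 14 and C1qa ranked 24 by mean level among 17000 detected genes. In CPM, UMI counts scaled to the total UMIs of the same barcodes, the mean levels were 2760 ± 401.3 CPM for C1qa, 4964 ± 1031 for C1qb and 4709 ± 1004 for C1qc (SD, n = 12 mice). Per kilobase of exon the levels were 2654 CPM for C1qa, 4562 CPM for C1qb and 3914 CPM for C1qc, although the assay primes at the 3′ end and counts each molecule once whatever its length. C1qa was the lowest chain on either scale.

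C1q UMIs also appeared in endothelial cells, astrocytes, pericytes and mural cells and ependymal cells, at a much lower level. Over all barcodes of a type, the 3 chains together stood at 12350 CPM in microglia, 2500 CPM in endothelial cells, 1673 CPM in astrocytes, 1660 CPM in pericytes and mural cells and 647.9 CPM in ependymal cells. With the mouse as the unit and at least 10 barcodes of the type, the summed level was 11900 ± 2284 CPM in microglia (SD, n = 15), 1696 ± 774.6 CPM in pericytes and mural cells (n = 6), 1640 ± 1334 CPM in endothelial cells (n = 7), 1408 ± 744.1 CPM in astrocytes (n = 15) and 680.4 ± 219.1 CPM in ependymal cells (n = 4). The lowest microglial value, 8449 CPM, was above the highest value of each of these 4 types, which was 4356 CPM, in endothelial cells. Within mice, pericytes and mural cells were above endothelial cells in 3 of 5 mice, endothelial cells were above astrocytes in 3 of 7, and astrocytes were above ependymal cells in 4 of 4, so the order among pericytes, endothelial cells and astrocytes did not go beyond the spread between mice.

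Perivascular macrophages, named from Mrc1, Cd163, Pf4, Lyve1, Cbr2 and Cd209f, had a C1q level like that of microglia. Their 29 barcodes held 2423 CPM of C1qa, 4954 CPM of C1qb and 5992 CPM of C1qc, 108% of the microglial level for the chains together. No mouse had 10 such barcodes, so this pooled value has no spread over mice. A further 1782 barcodes fell in 5 clusters that were left unnamed, 4 that met no marker list and 1 of 75 barcodes that met the lists of both oligodendrocyte precursors and neurons. They held 6768 CPM of C1q, 54.8% of the microglial level, and their UMIs of the 15 microglial markers stood at 57.6% of it. In these barcodes C1q was below microglia in 15 of 15 mice.

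**Figure D2:**
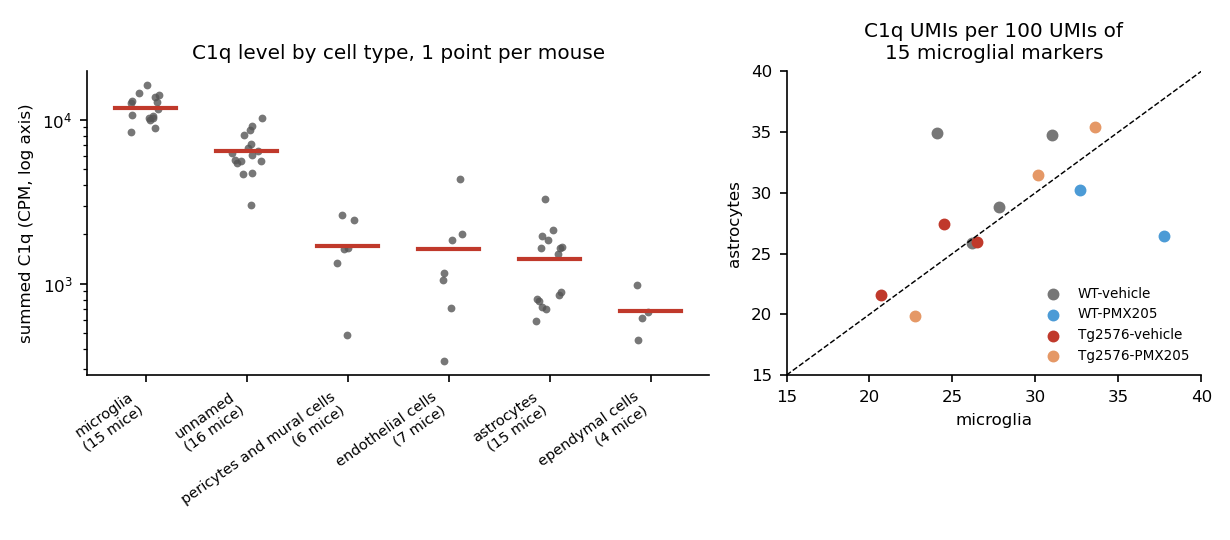
Left, summed C1q level (CPM, log axis) by cell type with 1 point per mouse that had at least 10 barcodes and a line at the mean; right, C1q UMIs per 100 UMIs of 15 microglial markers in astrocytes against microglia of the same mouse, with a dashed line of equality. Microglia averaged 11900 CPM and astrocytes 1408 CPM, while 7 of 12 mice lie above the dashed line.

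Almost every microglial barcode held C1q. At least 1 UMI of any chain was found in 98.5% of microglial barcodes (95% exact interval 97.7 to 99.0) at a median of 1051.5 UMIs per barcode, and in 66.4% of astrocyte barcodes (64.0 to 68.8) at a median of 990. After each barcode was thinned to 500 UMIs the shares were 96.6% and 50%. Intervals on shares cover counting error only, and barcodes of 1 mouse are not independent. Taken singly and thinned, C1qa was seen in 66.3%, C1qb in 81.7% and C1qc in 81.5% of microglial barcodes, against 16.9%, 27.2% and 27.5% of astrocyte barcodes.

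The C1q in astrocyte barcodes came together with other microglial RNA. The 15 microglial markers stood at 12.7% of their microglial level in astrocytes, and C1q at 13.5%. Astrocytes held 30.2 C1q UMIs per 100 marker UMIs and microglia 28.3. Within the 12 mice that had 20 barcodes of both types, the log2 ratio of the astrocyte to the microglial value was 0.021 ± 0.25 (SD) and was above 0 in 7. The split over chains was also close, with C1qa, C1qb and C1qc at 22.5%, 39.7% and 37.8% of C1q in microglia and at 19.5%, 41.3% and 39.2% in astrocytes. Endothelial cells and pericytes held 33.3 and 28.1 C1q UMIs per 100 marker UMIs, ependymal cells 17.4 and perivascular macrophages 76.5. Where astrocytes were taken by a gate on marker genes, the log2 ratio was 0.22 and above 0 in 10 of 12 mice.

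Microglial barcodes fell in 4 clusters, and C1q was high in each. The largest cluster (930 barcodes, led by Slc2a5, Tmem119 and Selplg) averaged 12190 ± 2183 CPM of summed C1q over 14 mice. A cluster of 225 barcodes led by P3h2 and Snx29 averaged 12690 ± 2597 CPM over 4 mice, and a cluster of 182 barcodes led by Cd74 and ribosomal protein genes averaged 13600 ± 2280 CPM over 8 mice. The cluster of 285 barcodes led by Cst7, Itgax, Spp1 and Lpl, genes of the disease-associated microglia (DAM) program, averaged 10350 ± 2626 CPM over 6 mice. The ranges of 1 SD around the 4 means overlap, and different mice enter each mean.

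A single microglial barcode held few molecules of each chain. The mean was 3.70 UMIs of C1qa, 6.53 of C1qb and 6.21 of C1qc, and the highest barcode held 180 UMIs of the 3 chains. All 3 chains were seen in 1225 of 1622 barcodes (75.5%), 2 chains in 279 (17.2%), 1 chain in 93 (5.73%) and none in 25 (1.54%). The barcodes with all 3 chains were deeper, with a median of 1161 UMIs against 732 in those with none.

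The spread over barcodes was wider than counting alone would give, for every chain. C1qa was at 0 in 16.5% of barcodes, where Poisson counting at each barcode's depth gives 7.70%. C1qb was at 0 in 8.32% (Poisson 1.90%) and C1qc in 8.51% (Poisson 2.28%). The dispersion index, which is 1 for pure counting, was 1.75 for C1qa, 2.97 for C1qb and 2.36 for C1qc. Other microglial genes lay in the same range or above it, with 2.37 for the chemokine receptor gene Cx3cr1, 2.88 for Csf1r, 4.99 for Ctss and 33.5 for Apoe.

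The chains varied together from barcode to barcode, but loosely. The mean within-library correlation of log-normalized values over 1520 barcodes of 20 libraries was 0.26 for C1qa with C1qb, 0.29 for C1qa with C1qc and 0.37 for C1qb with C1qc. The correlation of the 3 chains together was 0.43 with Ctss, 0.23 with Tyrobp and 0.20 with Trem2. It was 0.046 with Csf1r, 0.052 with Cx3cr1 and 0.040 with Tmem119, and -0.11 with the DAM gene Cst7 (17 libraries). Barcodes share their library, and values of 1 barcode share its depth, so these are descriptions. The share of 1 chain in a pair also varied more than counting gives, with indices of 1.67 for C1qa and C1qb, 1.43 for C1qa and C1qc and 1.64 for C1qb and C1qc.

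Among 1628 genes seen in at least 10% of barcodes, those most like the 3 chains over barcodes included Cst3 (0.51), Ctss (0.43), CT010467.1 (0.37) and Sparc (0.24). Cst3 encodes the secreted protease inhibitor cystatin C and Ctss the lysosomal protease cathepsin S. Over the 12 mice, the genes whose log2 level was most like that of the 3 chains together among 3888 genes were Susd4 (r = 0.87), Fundc1 (0.80), Cyb5a (0.75), Ppp1r21 (0.75) and, tied at 0.73, Rasa2 and Ttc41. Without the 2 mice whose C1q level was farthest from the median, these values were 0.70, 0.64, 0.71, 0.70, 0.64 and 0.51, and they are the top of a ranking, given with no test.

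Over mice, the levels of C1qb and C1qc moved closely together. Across the 12 mice the log2 levels of C1qb and C1qc had a Pearson r of 0.973 (permutation p = 1e-05, the smallest that 100000 permutations can give; adjusted over 3 pairs, 3e-05) and a Spearman rho of 0.986 (permutation p = 1e-05, adjusted 3e-05). The r was 0.971 without the 2 mice farthest from the median, 0.957 within groups and 0.973 in the 10 mice with few first-base pairs. C1qa had r = 0.312 with C1qb (permutation p = 0.32, adjusted 0.32; rho = 0.329, permutation p = 0.296) and r = 0.436 with C1qc (permutation p = 0.156, adjusted 0.234; rho = 0.371, permutation p = 0.235). Within groups these were 0.425 and 0.551 and without the 2 farthest mice 0.113 and 0.274, and with microglia taken by a gate on marker genes (15 mice) they were 0.633 and 0.732, against 0.970 for C1qb with C1qc. The difference between the correlations was not tested.

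**Figure D3:**
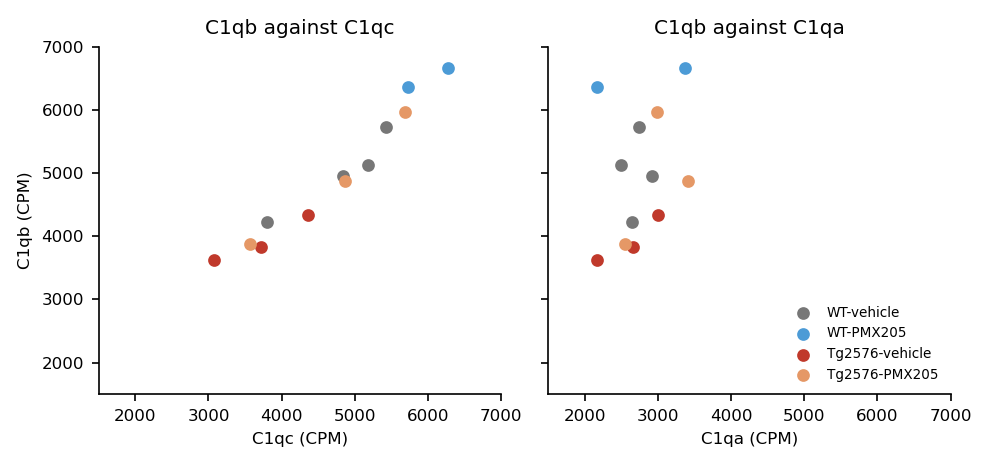
Level of C1qb (CPM in microglia, vertical axes) against C1qc (left) and against C1qa (right) in 12 mice, coloured by group. The points lie close to a line on the left (r = 0.973 on the log2 scale) and are scattered on the right (r = 0.312).

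The coefficient of variation over the 12 mice of all groups was 14.5% for C1qa, 20.8% for C1qb and 21.3% for C1qc. Within groups the order was not the same, with 30.7% for C1qa against 3.40% for C1qb in WT-PMX205 and 16.1% against 9.28% in Tg2576-vehicle mice. For comparison, counting error alone came to between 2.71 and 8.30% for C1qa, 1.92 and 6.32% for C1qb and 1.96 and 6.31% for C1qc. The ratio of C1qc to C1qb stayed between 0.848 and 1.01 in the 12 mice, and the ratio of C1qb to C1qa between 1.43 and 2.93.

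Whether the transgene changed C1q in microglia was asked by comparing Tg2576-vehicle with WT-vehicle mice, with UMIs of both regions summed per mouse. The WT-vehicle mice stood at 2739, 2926, 2497 and 2644 CPM of C1qa, and the Tg2576-vehicle mice at 2163, 3000 and 2664 CPM. For C1qa the groups overlapped. For C1qb the WT-vehicle mice stood at 5725, 4951, 5128 and 4233 CPM, and the Tg2576-vehicle mice at 3629, 4336 and 3827 CPM. For C1qc the WT-vehicle mice stood at 5422, 4838, 5181 and 3802 CPM, and the Tg2576-vehicle mice at 3079, 4353 and 3715 CPM. For C1qb and C1qc the lowest mice were transgenic, and the groups overlapped through WT-vehicle mouse 4, one of the 2 mice with conflicting labels.

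None of the chains passed the test for genotype. In edgeR's quasi-likelihood test the log2 fold change was -0.023 for C1qa (95% interval -0.39 to 0.34; adjusted p = 0.9998), -0.32 for C1qb (-0.64 to 0.010; adjusted p = 0.901) and -0.34 for C1qc (-0.69 to 0.0064; adjusted p = 0.899). Of all 3891 genes tested, 8 were called in this comparison, or 0.206%, against 0 of 3 chains. Without the 2 mice with conflicting labels the log2 fold changes of C1qb and C1qc were -0.34 and -0.41, and without the mice with a C5ar1 knockout label they were -0.47 and -0.57. They were smaller with barcodes merged (-0.20 and -0.28), where the cluster led by Cst7, Spp1 and Itgax was also left out of the microglia. They were also smaller with microglia taken by the marker gate (-0.24 and -0.21) and without Tg2576-vehicle mouse 1 (-0.27 and -0.23). The chains passed the threshold under none of these alternatives. The ratio of C1qc to C1qa averaged 1.788 ± 0.2957 in WT-vehicle mice (SD, n = 4) and 1.420 ± 0.030 in Tg2576-vehicle mice (n = 3), a log2 difference of -0.31 (exact permutation test over mice, two-sided p = 0.0857, smallest possible 0.0286, adjusted over 12 exact tests 0.281). The ratio of C1qb to C1qa differed by -0.28 (exact permutation p = 0.143, adjusted 0.286).

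**Figure D4:**
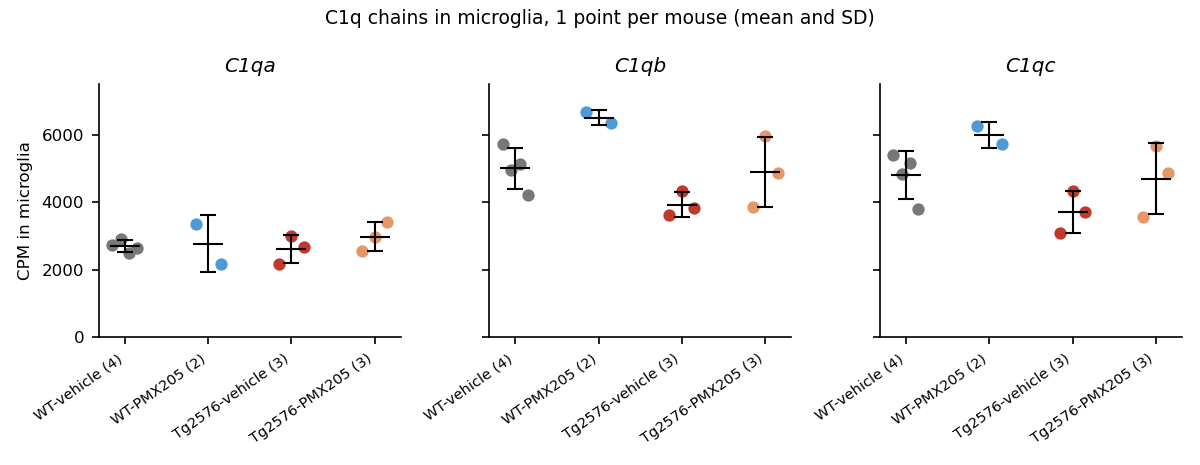
Level of each C1q chain in microglia (CPM) by group, with 1 point per mouse, the mean as a wide bar and the SD as error bars; the number of mice stands beside each group name. C1qa means lie between 2609 and 2980 CPM, while C1qb means run from 3931 CPM in Tg2576-vehicle to 6516 CPM in WT-PMX205 mice.

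The effect of PMX205 in the transgenic mice was asked next. The Tg2576-PMX205 mice stood at 2550, 2984 and 3407 CPM of C1qa, 3871, 5972 and 4869 CPM of C1qb and 3573, 5678 and 4866 CPM of C1qc. Mouse 1 lay within the range of the Tg2576-vehicle mice for each chain, and mice 2 and 3 lay above it for C1qb and C1qc. Mice 2 and 3 are the ones with many first-base barcode pairs, and no Tg2576-vehicle mouse used here had them. The edgeR log2 fold changes were 0.18 for C1qa (interval -0.20 to 0.56), 0.30 for C1qb (-0.043 to 0.65) and 0.33 for C1qc (-0.041 to 0.70), with an adjusted p of 0.9997 for each and 0% of genes called (0 of 3891). With first-base pairs as a term in the fit they were -0.058, -0.052 and -0.082, but the term takes up mice 2 and 3, so these values rest on Tg2576-PMX205 mouse 1 alone and do not separate the pairs from the treatment. Leaving out Tg2576-PMX205 mouse 2 gave 0.12 for C1qb and 0.16 for C1qc, and leaving out mouse 1 gave 0.46 and 0.50. The log2 difference in the ratio of C1qb to C1qa was 0.11 (exact permutation p = 0.7, adjusted 0.7) and in that of C1qc to C1qa 0.13 (exact permutation p = 0.6, adjusted 0.655), where 3 mice against 3 cannot go below 0.1.

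In WT mice PMX205 could be compared in 2 treated and 4 vehicle mice. The WT-PMX205 mice stood at 3374 and 2170 CPM of C1qa, 6672 and 6359 CPM of C1qb and 6272 and 5731 CPM of C1qc. C1qb and C1qc were above all 4 WT-vehicle mice in both treated mice, and C1qa lay on either side of them. The share of all genes that separate these mice was not counted. WT-PMX205 mouse 3, left out with 8 microglial barcodes, stood at 1619, 2864 and 2428 CPM of C1qa, C1qb and C1qc. These values lay below all 4 WT-vehicle mice. In edgeR the log2 fold changes were 0.031 for C1qa (interval -0.39 to 0.45; adjusted p = 0.976), 0.38 for C1qb (0.015 to 0.75; adjusted p = 0.518) and 0.32 for C1qc (-0.071 to 0.71; adjusted p = 0.627). None passed, and 0% of genes were called (0 of 3891). The C1qa value was -0.33 without treated mouse 1 and 0.26 without treated mouse 2. Over 16 alternatives the C1qb value lay between 0.23 and 0.47 and the C1qc value between 0.16 and 0.45. The mice compared here that carry the C5ar1 knockout label, WT-vehicle mice 2 and 4, were both vehicle mice. The difference between the PMX205 effects in Tg2576 and WT mice was 0.15 for C1qa (interval -0.42 to 0.72), -0.077 for C1qb (-0.58 to 0.43) and 0.0092 for C1qc (-0.53 to 0.55), with adjusted p-values from edgeR of 0.959, 0.965 and 0.997 and 0% of genes called.

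Within each region the chains did not pass either. In cortex (12 libraries) the log2 fold changes for genotype were 0.068, -0.43 and -0.38 for C1qa, C1qb and C1qc (edgeR adjusted p of 0.992, 0.910 and 0.910), with 0.136% of 2198 genes called. In hippocampus (8 libraries, none of WT-PMX205 mice) they were -0.096, -0.29 and -0.39 (adjusted p = 0.982 for each), with 0.116% of 2591 genes called. For PMX205 in Tg2576 mice they were 0.23, 0.39 and 0.38 in cortex and 0.29, 0.23 and 0.38 in hippocampus, and for PMX205 in WT cortex 0.33, 0.15 and 0.38, with 0% of genes called in each. Over the 30 tests of single chains in 10 comparisons, edgeR called 0 and gave 4 unadjusted p-values under 0.05, and DESeq2 likewise called 0 and gave 4. Over all genes in the same comparisons, 5.32% of 29876 unadjusted p-values were under 0.05 in edgeR and 4.51% in DESeq2. The 3 chains of a comparison share their mice, and the comparisons share mice, so these 30 tests are not independent.

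Markers of other cells were low in these microglial sums. The 12 astrocyte markers together stood between 919.2 and 2115 CPM over the 12 mice, with 1 marker at 0. The 9 endothelial markers stood between 604.1 and 1013 CPM, and all 4 WT-vehicle mice (604.1 to 695.6 CPM) were below all 3 Tg2576-vehicle mice (727.7 to 953.9 CPM). The 6 perivascular macrophage markers stood at 119.9 CPM or less. The 15 microglial markers stood between 44390 and 48630 CPM in WT-vehicle and between 41670 and 44170 CPM in Tg2576-vehicle mice, so they were also lower in the transgenic mice. The log2 difference of the 3 chains together was -0.29 by CPM and -0.19 per UMI of the microglial markers. Without the barcodes with DAM genes it was -0.21. These alternatives were chosen after the data were seen. In the libraries of mice with both regions, barcodes with DAM genes made up 3.45 to 10.4% of microglia in WT-vehicle mice. In Tg2576-vehicle mice they made up 14.6 to 37.6%. The part of the other cell markers in the C1q values was not tested.

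Cortex and hippocampus could be compared within 8 mice. The level of the 3 chains together in cortex and then hippocampus was 14530 and 12560 CPM in WT-vehicle mouse 1, 13750 and 11500 in mouse 2, and 11310 and 9610 in mouse 4. It was 9653 and 7804 CPM in Tg2576-vehicle mouse 1 and 10740 and 9720 in mouse 3. It was 11030 and 9411 CPM in Tg2576-PMX205 mouse 1, 15570 and 11480 in mouse 2, and 13450 and 12240 in mouse 3. The hippocampal value was the lower one in 8 of 8 mice, by a mean log2 difference of -0.24 ± 0.097 (SD).

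**Figure D5:**
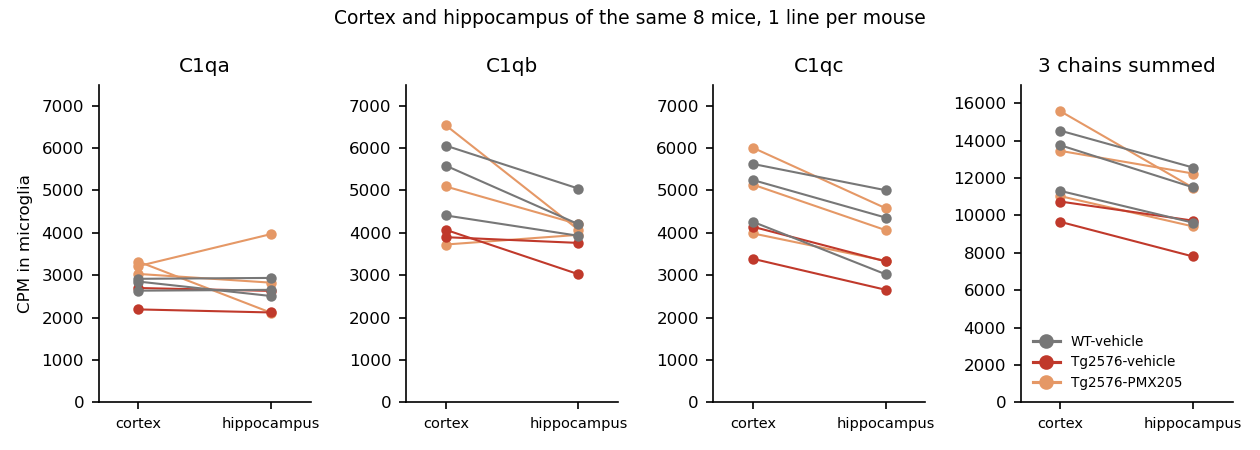
Levels of C1qa, C1qb, C1qc and the 3 chains summed (CPM in microglia) in cortex and hippocampus, with 1 line per mouse coloured by group. C1qc and the sum go down from cortex to hippocampus in 8 of 8 mice, and C1qa lines run in both directions.

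By chain, C1qc was lower in hippocampus in 8 of 8 mice, by log2 differences between -0.17 and -0.49, and C1qb in 7 of 8, with Tg2576-PMX205 mouse 1 at 0.086. C1qa was lower in 5 of 8 mice, with differences between -0.65 and 0.30. In edgeR, with the group in the fit, the log2 fold changes of hippocampus against cortex were -0.068 for C1qa (interval -0.32 to 0.19; adjusted p = 0.983), -0.29 for C1qb (-0.53 to -0.052; adjusted p = 0.846) and -0.32 for C1qc (-0.57 to -0.070; adjusted p = 0.846). None passed the threshold over 2536 genes, of which 0% were called. With the mouse as replicate block, which pairs the 2 libraries of an animal, the edgeR values were -0.090, -0.29 (adjusted p = 0.574) and -0.33 (adjusted p = 0.382), and 3 of 3568 genes were called in place of 0, none of them a chain.

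The ratio of C1qc to C1qa was lower in hippocampus in 6 of 8 mice, by a mean log2 difference of -0.24 ± 0.32 (exact sign-flip permutation p = 0.0938, adjusted over 12 exact tests 0.281). The ratio of C1qb to C1qa was lower in 7 of 8, by -0.19 ± 0.43 (exact permutation p = 0.258, adjusted 0.4). Without Tg2576-PMX205 mouse 1 the ratio of C1qb to C1qa differed by -0.32 (exact permutation p = 0.0156, not adjusted) and that of C1qc to C1qa by -0.33 (exact permutation p = 0.0312, not adjusted). Several features moved with region. Astrocyte markers in the microglial sums were higher in hippocampus in 2 of 8 mice (mean 1065 against 1626 CPM in cortex), and perivascular macrophage markers likewise in 2 of 8 (19.29 against 42.32 CPM). The median UMIs per microglial barcode were higher in hippocampus in 8 of 8 mice (1140.5 to 1298, against 908.5 to 1131 in cortex). The 15 microglial markers together were lower in hippocampus in 8 of 8 mice, with a mean of 42210 against 45460 CPM. The share of barcodes with DAM genes was higher in hippocampus in 5 of 8. Per UMI of the microglial markers the C1q difference was -0.14 and negative in 7 of 8 mice. Without the barcodes with DAM genes it was -0.30 and negative in 7 of 7. The part of the other features in the C1q values was not tested.

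DAM-like barcodes were compared with the other microglia of the same mouse, where a barcode was counted as DAM-like with UMIs of at least 2 of Cst7, Lpl, Itgax, Csf1, Axl, Cd9 and Spp1. There were 347 such barcodes, and 7 mice had 10 of either kind. C1qc stood between 2909 and 5371 CPM in DAM-like and between 3196 and 5908 CPM in other barcodes and was lower in the DAM-like ones in 7 of 7 mice, by a mean log2 ratio of -0.18 ± 0.23 (SD; exact sign-flip permutation p = 0.0156, the smallest possible; adjusted over 4 tests 0.0624). C1qb was lower in 6 of 7 mice, by -0.24 ± 0.27 (exact permutation p = 0.0469, adjusted 0.0625), and C1qa in 4 of 7, by -0.035 ± 0.29 (exact permutation p = 0.734). None of these passed after adjustment. DAM-like barcodes were the deeper ones in 6 of 7 mice, and with barcodes thinned to 500 UMIs before the call the C1qc value was -0.27 and negative in 5 of 5 mice. With at least 3 of the 7 genes required it was -0.091 and negative in 4 of 5.

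The partners of C1q in the C1 complex were all but absent from microglia. None of C1ra, C1rb, C1s1, C1s2, which encode the proteases, and Serping1, which encodes their inhibitor, was high enough to be tested, and C1ra was the highest at 4.365 ± 8.96 CPM (8 UMIs, SD, n = 12 mice). C1rb, C1s2 and Serping1 had 1, 1 and 3 UMIs, and C1s1 had 0. None of 9 genes downstream of C1 could be tested, with C4b at 5.208 CPM, C7 at 2.84, C2 at 2.674 and C3 at 1.681. No gene of either list exceeded 11 UMIs over the 12 mice.

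Regulators and receptors of complement ranged from 0 to 817.8 CPM. Of 10 regulators 2 were tested, among them Cr1l (75.94 ± 36.66 CPM), which encodes a membrane regulator of C3, and 0 passed. Cfi stood at 19.16 and Csmd1 at 10.7 CPM. Of 15 receptors and binding proteins 9 were tested, and the highest were Lrp1 (817.8 CPM), Cd33 (800.5 CPM), Lair1 (787.8 CPM) and Calr (777.3 CPM). LAIR1 and CD33 are inhibitory receptors of myeloid cells, and LRP1 and calreticulin take part in the uptake of dying cells. C5ar1, the target of PMX205, stood at 31.69 ± 22.45 CPM and was too low to be tested.

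Of the 11 genes of these lists that were high enough to be tested, Itgax passed for genotype, where 0.206% of all genes were called, and 0 passed in the other comparisons with regions summed, where 0% were. Itgax, named after its values were seen, encodes the alpha chain of complement receptor 4 and is also a DAM gene. It had 1 UMI (4.272 CPM) in WT-vehicle mouse 1 and 0 in the other 3, against 102.2, 17.34 and 71.87 CPM in the Tg2576-vehicle mice, the second of these from 1 UMI. With 40 UMIs against 1 the ratio of levels was 42.1, with an exact counting interval of 7.13 to 1700 that covers counting error only. It was high enough to be tested through the Tg2576 mice, with 40 UMIs under vehicle and 189 under PMX205, against 1 and 3 in WT mice, so its test is not independent of the difference. The edgeR adjusted p was 0.0266, and it ranged from 9.67e-05 to 0.325 over the 17 alternatives in which Itgax could be tested, of which 8 passed. With barcodes merged it could not be tested, and there the cluster it leads was not among the microglia. It passed in 1 of 7 fits that left out a mouse, where it lay between 0.0271 and 0.135. The median log2 fold change of the 9 tested receptors was 0.20, against -0.014 over all 3891 genes tested.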

How the data were processed

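The authors pseudoaligned SureCell 3′ reads with kb count (kallisto bustools) to mm10 with GENCODE M21, after bcl2fastq 2.18.0.12 per the labels, and deposited UMI counts, not normalized, for barcodes of at least 300 UMIs. All 55341 symbols matched that annotation.

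Barcodes with at least 500 UMIs, 300 genes and at most 5% mitochondrial UMIs were kept, and the top 6% of Scrublet scores per library were removed as doublets (scanpy 1.11.5). Clusters (sctransform 0.4.2, Leiden) were made without the C1q rows and named from marker lists. UMIs were summed per mouse or library with at least 20 microglia and tested with edgeR 4.0.16 (filterByExpr, TMM, quasi-likelihood, Benjamini-Hochberg over all genes tested, threshold 0.05), checked on simulated data. DESeq2 1.42.0 was an alternative. CPM values are scaled to the UMIs of the same barcodes. Ratios of chains and the 3 chains summed were compared by exact permutation of mice in 1 family of 12 tests (3 measures, 4 comparisons) with adjustment over all 12. The sum is printed with its spread and without its p-value, since it is a score over the genes chosen. Named genes were the 3 chains, the highest 4 per complement list and the 5 most like the chains; Itgax was added after its values were seen, and so was C5ar1. Values of some genes that this rule names are not reported here. The genes and lists were chosen with earlier results of these data known.

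The cortex and hippocampus libraries with the same replicate number came from 1 animal. Deviations from group means correlated at 0.0196 to 0.177 between regions of the same mouse (8 pairs, 3587 genes). Between different mice of a group they correlated at -0.177 to 0.00558. The deviations of a group cancel out and the groups are small, so the second range is tied to the first by arithmetic. The contrast of the ranges is therefore no separate check of the pairing.

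Alternatives kept doublets, required 1000 UMIs or 50 microglia, took microglia by a marker gate, merged barcodes that differed at the first base, dropped mice with conflicting labels, each mouse in turn or the filter on low counts, or changed the scaling or tool.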

Additional observations from a re-analysis of the deposited data

Results flagged for a closer look

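C1q was also abundant in barcodes that no comparison used. The 7952 deposited barcodes that failed the limits on UMIs, genes or mitochondrial share held 24279 C1q UMIs of 3203954, or 7578 CPM for the chains together, where a count of 0 would allow 0.936 CPM. Of these UMIs 19.2% were C1qa, 43.3% C1qb and 37.5% C1qc, and 78.2% of the barcodes had a C1q UMI.

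The 4 mice with fewer than 20 microglial barcodes also showed C1q in those barcodes. The summed level was 8449 CPM in Tg2576-PMX205 mouse 4 (13 barcodes), 10230 CPM in Tg2576-vehicle mouse 4 (16 barcodes), 6911 CPM in WT-PMX205 mouse 3 (8 barcodes) and 10640 CPM in WT-vehicle mouse 5 (11 barcodes). The value of WT-PMX205 mouse 3 was below the 16320 and 14260 CPM of the WT-PMX205 mice that were compared, and it rests on the fewest barcodes. Dixon's criterion could be applied to 17 sets of values, in the WT-vehicle mice and in the 8 mice with both regions, and none held a value that stood apart. It was not applied to the 4 mice above or to the other groups, which had too few mice.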

How the results depend on the processing

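No alternative put a chain past the threshold in the 10 comparisons across all genes. Of 522 alternative values for the 30 edgeR fold changes of the chains, 479 kept their direction and 43 changed sign, all of them on values that had not passed. Of 198 alternatives of the 12 exact tests, 189 kept direction and side of the threshold.

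A term for first-base pairs takes up Tg2576-PMX205 mice 2 and 3 and leaves mouse 1 as the only treated Tg2576 mouse, so its values cannot tell the pairs apart from these mice. With it, the PMX205 effect in Tg2576 mice was -0.058, -0.052 and -0.082 for C1qa, C1qb and C1qc with regions summed, -0.13 and -0.0023 for C1qb and C1qc in cortex and -0.18 for C1qa in hippocampus. With the same term the PMX205 effect on C1qa in WT mice was -0.019, and the difference of the PMX205 effects was -0.039 for C1qa and -0.35 for C1qc. Microglia taken by the marker gate gave 0.0085 for C1qa by genotype, -0.26 for the C1qc difference of effects, and -0.14 and -0.15 for the ratios of C1qb and C1qc to C1qa under PMX205 in Tg2576 mice. Without the filter on low counts the PMX205 effect in WT mice was -0.12 for C1qa and, in cortex, -0.028 for C1qb, and the C1qb difference of effects was 0.14. Without mice with a C5ar1 knockout label, an alternative chosen after seeing the data, these C1qb values were -0.067 in cortex and 0.12. The C1qc difference of effects was -0.025 with doublets kept, -0.097 with barcodes merged, -0.025 with RLE scaling and -0.018 in DESeq2. C1qa by genotype in cortex was -0.086 with at least 1000 UMIs and -0.14 with at least 50 microglia, and by region 0.037 with at least 50 microglia.

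Also chosen after seeing the data, leaving out DAM-like barcodes gave -0.013 for the ratio of C1qb to C1qa under PMX205 in Tg2576 mice and -0.29 for the ratio of C1qc to C1qa by region. The summed difference by region was -0.26 with at least 50 microglia (4 mice). The astrocyte ratio was 0.22 with the marker gate, -0.037 with at least 1000 UMIs and -0.050 with barcodes merged. The DAM-like difference of the sum was -0.16 (lower in 6 of 7 mice), against -0.067 for the sum and 0.084 for C1qa with at least 3 genes, and -0.24 for the sum when called after thinning. The cause of these changes was not tested.

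Leaving out 1 mouse at a time moved C1qa by genotype between -0.11 and 0.091 (regions summed), -0.063 and 0.19 (cortex) and -0.21 and 0.086 (hippocampus). The PMX205 effect in WT mice moved between -0.33 and 0.26 for C1qa, and in cortex between -0.26 and 0.57 for C1qa, -0.17 and 0.23 for C1qb and -0.0014 and 0.49 for C1qc. The difference of effects moved between -0.065 and 0.54 for C1qa, -0.25 and 0.083 for C1qb and -0.16 and 0.19 for C1qc. C1qa by region moved between -0.15 and 0.00013. Under PMX205 in Tg2576 mice the ratio of C1qb to C1qa moved between -0.041 and 0.20 and that of C1qc to C1qa between -0.0081 and 0.21. By region these ratios moved between -0.32 and -0.13 and between -0.33 and -0.18, and both were farthest from 0 without Tg2576-PMX205 mouse 1.

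The count of all genes called also moved. By genotype with regions summed it was 8, and 1 with barcodes merged (where the cluster led by Cst7, Spp1 and Itgax, 169 barcodes, was also left unnamed and so out of the microglia), 3 without knockout-labelled mice, 16 with first-base pairs as a term, 23 without the filter and 5 to 10 with 1 mouse left out. Over the other comparisons, where 0 to 3 genes were called, alternatives gave between 0 and 19. With the mouse as replicate block, 3 genes were called by region, and the block changed no call of a chain. Depth limits the C1 proteases and downstream genes, with at most 11 UMIs each.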

Other observations

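In this assay the barcode starts at a varying position in the read, and the balance of the chains differed with how far a deposited barcode was out of place. Among microglia the ratio of C1qb to C1qa was 1.88, 1.63 and 1.66 for barcodes 0, 1 and 2 bases out of place (669, 477 and 443 barcodes). It was 4 and 6.5 for those 3 and 4 bases out of place (23 and 8 barcodes). These 2 ratios rest on few C1qa UMIs and carry no interval. C1qa stood at 888.1 and 862.8 CPM there, in barcodes with a median of 593 and 568.5 UMIs. Over all barcodes within the limits the ratio of C1qb to C1qa was 2.04, 1.76 and 1.80 in the first 3 classes and 4.57 and 3.69 in the next 2. It was 3.70 in a further class of 495 barcodes, 1 sequence family found in every library. Their later bases are all T, so they are not barcodes at a known distance out of place. C1qc followed C1qb, with ratios to C1qa of 3.71, 3.44 and 3.05 in these last 3 classes. The cause was not tested.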
